A study of Mus musculus with 316 samples.

Results

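The cells described here are the brain endothelial cells of the hippocampus that carried neither an arterial nor a venous marker profile by a rule on 12 genes. The comparison is between cells sorted in a gate labelled pos and cells sorted in a gate labelled neg. They were chosen by their own measured counts. Only cells with at least 1000 detected genes entered. In each of them, each count was divided by the reads of the cell and multiplied by 1e+06 (CPM), and the number of 6 arterial genes (Gkn3, Bmx, Sema3g, Cytl1, Fbln5 and Mgp) and of 6 venous genes (Nr2f2, Lrg1, Il1r1, Vwf, Ch25h and Icam1) at 10 CPM or more was counted. Cells with at most 1 arterial and at most 1 venous gene were kept. Of 316 cells in the series, 280 had at least 1000 detected genes and 130 of these were kept, 16 from the pos gate and 114 from the neg gate.

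The mice were C57BL/6 males, 3 months old (young) or 19 months old (aged), with no genetic change or treatment named in the labels. Each pool holds the hippocampi of 4 mice, taken apart with a Miltenyi kit before sorting, and there were 2 pools at each age with both gates taken from every pool. The labels do not name the marker behind the gate, while the series title names VCAM1. The 4 groups are therefore young pos, young neg, aged pos and aged neg, each with 2 pools, and a pool rather than a mouse or a cell is the replicate.

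Brain endothelial cells form the blood-brain barrier, a layer sealed by tight junctions and supplied by nutrient transporters, and they change along the vessel tree from artery to capillary to vein. Capillary cells make up most of this lining and are known for transporters such as Mfsd2a and Slc16a1. VCAM1 is an adhesion molecule that binds leukocyte integrins and is induced by inflammatory cytokines through the transcription factor NF-kappaB, while MHC class I molecules present peptides to cytotoxic T cells and are induced by interferons.

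The gates differed in how many cells met the rule. In the pos gate 16 of 145 cells (11.03%) were kept, and in the neg gate 114 of 135 (84.4%). By pool, the pos gate gave 6 and 1 kept cells in young pools 1 and 2 and 3 and 6 in aged pools 1 and 2. The neg gate gave 31, 34, 17 and 32 in the same order. Reads summed over the kept cells of a pool were 3740632, 834675, 1694821 and 3251730 in pos and 19661989, 16848039, 6389958 and 17135253 in neg. Per kept cell the median was 585266 reads in pos and 514716 in neg. The pos sum of young pool 2 is a single cell, and every value for it is that cell's. All 316 cells carried different barcode labels, and 0 cells had the same values as another cell.

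**Figure D1:**
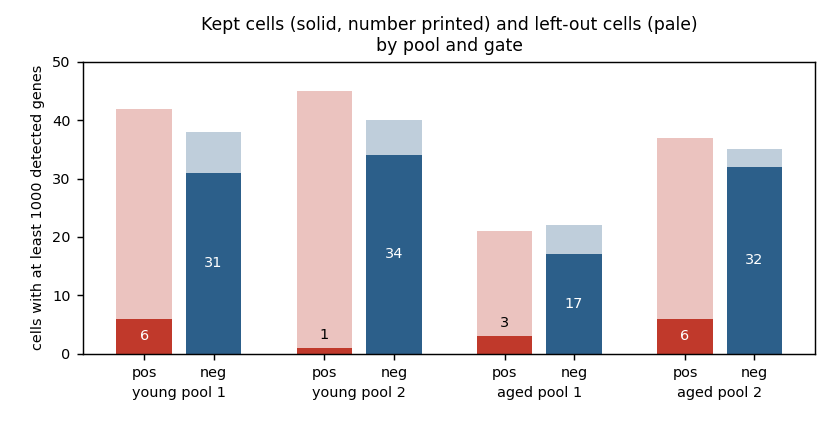
Cells with at least 1000 detected genes in each pool and gate; the solid part of each bar is the kept cells, with their number, and the pale part the cells left out for 2 or more arterial or venous genes. The pos bars are mostly pale and the neg bars mostly solid in all 4 pools.

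The kept cells of the gates sat differently inside the limits of the rule. Among the 16 pos cells, 7 had no arterial and no venous gene at 10 CPM and 9 had 1 venous gene, which was Vwf in 7 and Nr2f2 in 2. Among the 114 neg cells, 67 had neither, 35 had 1 venous gene, 7 had 1 arterial gene and 5 had 1 of each. Just outside the limits, with 2 as the higher of their counts, were 19 pos and 9 neg cells, and 110 pos and 12 neg cells had a count above 2. These counts follow from the rule and were not tested.

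In the kept pos sums, Vwf, the blood clotting protein stored in endothelial granules, stood at 241, 9.58, 162 and 1258 CPM for young pools 1 and 2 and aged pools 1 and 2, against 281, 64.0, 319.7 and 271 CPM in neg. The gates overlapped. Nr2f2, a transcription factor of vein identity, was at 0, 0, 0 and 114 CPM in the pos sums against 72.3, 3.86, 9.39 and 1.98 CPM in the neg sums. The arterial genes Bmx, Cytl1, Fbln5 and Mgp had no read in any kept pos cell, while Bmx had reads in 7 and Mgp in 12 of the 114 kept neg cells. Over 24 other arterial genes the summed level was 12512, 17489, 5706 and 6747 CPM in pos and 9001 to 10458 CPM in neg. Over 14 other venous genes it was 4815, 1464, 8138 and 6172 CPM in pos and 4849 to 5421 CPM in neg. On the mean log2(CPM + 1) over cells, each of these lists was higher in pos in 1 of 4 pools. The part of this in the differences below was not tested.

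The 16 pos cells were checked against endothelial markers one by one. The tight junction protein Cldn5 had reads in 15 of 16 and Pecam1, an adhesion molecule of endothelial junctions, in 15 of 16, against 112 and 99 of the 114 neg cells. The cell without Cldn5 reads, from young pool 1, also had no read of Pecam1, Cdh5 or Flt1. It carried Ttr at 4180 CPM and Kcnj13 at 2949 CPM, genes typical of the choroid plexus epithelium, and Vcam1 at 531 CPM. A second cell of that pool had endothelial reads together with Aldoc at 6921 CPM and Slc1a2 at 1686 CPM, both typical of astrocytes. It also held Clu, a gene of the other arterial list, at 7825 CPM. Values without these 2 cells are given below where they matter.

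**Figure D2:**
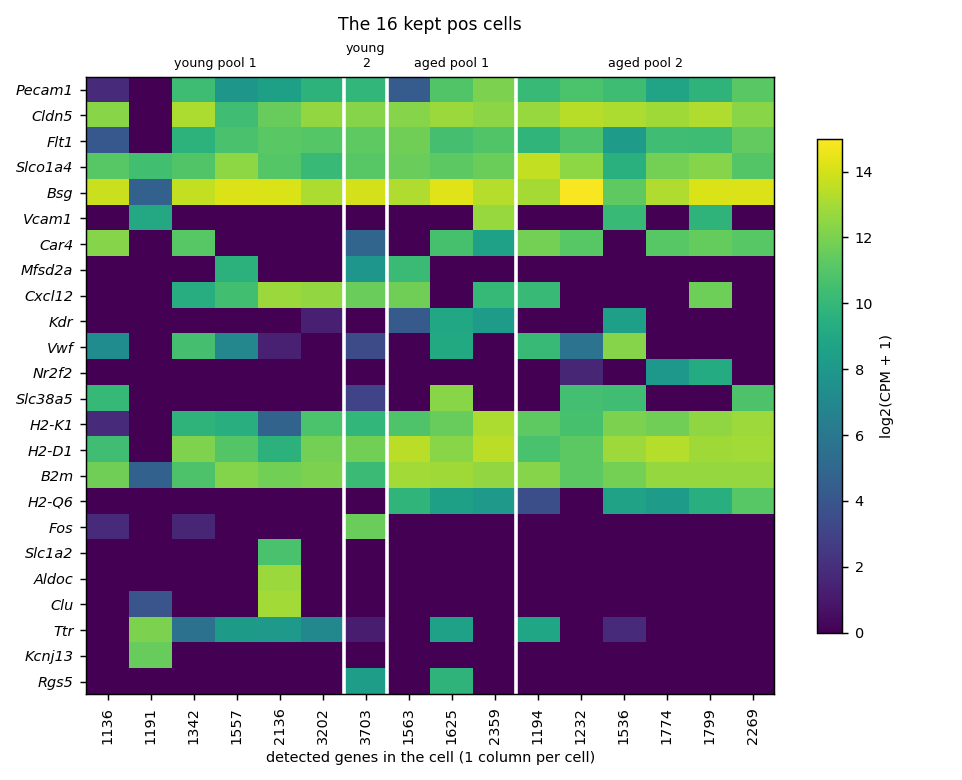
Level of 24 genes, as log2(CPM + 1), in each of the 16 kept pos cells, with 1 column per cell labelled by its number of detected genes. The column at 1191 genes lacks Pecam1, Cldn5 and Flt1, the column at 2136 genes carries Slc1a2, Aldoc and Clu, and H2-Q6 has colour in aged columns only.

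Markers of other cell types were looked up in the kept cells, and no listed neuronal or erythrocyte gene is a row of the table used here. Some had reads in many cells: the oligodendrocyte gene Mal in 13 of 16 pos and 73 of 114 neg cells, the fibroblast gene Apod in 10 and 36, and the choroid gene Ttr in 9 and 38. Of 10 pericyte genes 2 are rows of the table used here, and their summed level was 0 to 322 CPM in pos and 0 to 26.03 CPM in neg sums. Of 10 astrocyte genes 3 are rows, at 0 to 1659 CPM in pos and 63.9 to 323 CPM in neg. Of 11 microglial genes 9 are rows, at 0 to 341 CPM in pos and 40.1 to 156 CPM in neg, and Cx3cr1, P2ry12, Tmem119, Csf1r, C1qb and C1qc were at 0 in pos. All 5 leukocyte genes in the table (Lyz2, S100a8, S100a9, Coro1a and Itgam) were at 0 in pos. The summed level of 18 pan-endothelial genes was 39821 to 44795 CPM in pos and 45205 to 48004 CPM in neg. Of 10 oligodendrocyte genes 3 are rows, at 134 to 1128 CPM in pos and 546 to 911 CPM in neg. Of 8 fibroblast genes 2 are rows, and their summed level was 99.7, 185, 729 and 1275 CPM in pos for young pools 1 and 2 and aged pools 1 and 2, against 138 to 168 CPM in neg. On the mean log2(CPM + 1) over cells this list was higher in pos in 4 of 4 pools (3.07 against 1.24), and in 3 of 4 without the 2 cells. Nearly all of it was Apod, since Col3a1 had reads in 1 pos cell and no neg cell. Of 5 choroid and ependymal genes 2 are rows, at 548, 1.20, 111 and 39.1 CPM in pos and 17.7 to 113 CPM in neg. The part of these other cells in the differences below was not tested, apart from the values given without the 2 cells.

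Vcam1 itself (chromosome 3, 116109949 to 116129688, minus strand, GRCm38, overlapped by Gm43109 on the other strand) was seen in few of these cells. Reads were present in 1 of 6, 0 of 1, 1 of 3 and 2 of 6 pos cells for young pools 1 and 2 and aged pools 1 and 2. In neg they were present in 1 of 31, 3 of 34, 0 of 17 and 0 of 32 cells. This is 25.0% of pos cells (exact 95% binomial interval 7.27% to 52.4%) and 3.51% of neg cells (0.964% to 8.74%). The 25.0% counts the young pool 1 cell with Ttr and Kcnj13 and no read of Pecam1, Cldn5, Cdh5 or Flt1. The interval covers counting error only, and for the 49 aged neg cells, with 0 reads, the exact interval reaches 7.25% (6.12% by a limit of 3 counts).

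Averaged over pools, the share was 20.8% ± 15.96 in pos and 3.01% ± 4.16 in neg (SD, n = 4), and it was higher in pos in 3 of 4 pools. The difference of 17.8 percentage points was within the spread of the pools by a two-sided exact permutation test (p = 0.143, smallest possible 0.0286). That test leaves out the pairing of gates within a pool. Exchanging gates within pools gave an exact permutation p of 0.25 (smallest possible 0.125). Without the 2 cells that carry markers of another type the difference was 13.7 points (unpaired exact permutation p = 0.429). Pos was then higher in 2 of 4 pools, and both young pos pools were at 0%. Among the cells that the rule left out, 84 of 129 pos cells (65.1%) and 5 of 21 neg cells (23.8%) had a Vcam1 read.

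Summed over cells, the pos sums held 29.7, 0, 2449 and 353 CPM, and the neg sums 0.0509, 0.475, 0 and 0 CPM. The 29.7 CPM of young pool 1 is 111 reads. All came from the cell with Ttr and Kcnj13 and no read of Pecam1, Cldn5, Cdh5 or Flt1. Both aged pos sums were above every other sum, and 1 aged cell with 4151 reads gave 76.7% of all Vcam1 reads in pos. The 4 neg cells with a read had 9 reads between them. With edgeR's quasi-likelihood test over all genes, the log2 fold change was 10.78 ± 2.11 (SE) with an adjusted p of 0.234, and with the pool as a block the adjusted p was 0.0418. That fold rests on 9 reads on the neg side. Without the 2 cells the log2 fold change in edgeR was 5.85 and far from the test, and the block fit was not run without them.

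Over all genes, few differences between the gates held up. Of 9083 genes tested on the 8 sums, 1 (0.011%) passed an adjusted p of 0.05 in edgeR. At an unadjusted p under 0.05 there were 35 higher (0.385%) and 1857 lower (20.4%) in pos. The median log2 fold change over all tested genes was -2.76, and 1478 of them had no read in any of the 16 pos cells. Lower values in pos were common over all genes, since the 4 pos sums lay below the 4 neg sums for 945 genes (10.4%) and above them for 32 (0.352%). In all, 1734 of the 9083 genes had a log2 fold change above 0 and 7349 below 0, and of the 917 genes with a mean of at least 200 CPM 245 were above and 672 below. Counts in any gene group are read against these shares.

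Scaling also moved the values. The factors of the main fit (TMM) set the median log2 fold change of the 917 genes with a mean of at least 200 CPM at -0.43, and scaling to total reads alone set it at -0.01. CPM values printed here are per total reads of the sum, and log2 fold changes are from the main fit unless stated. Because a pool supplied its pos and its neg cells from the same animals, a second edgeR fit took the pool as a block. It has few sums left to measure the spread between pools, so its p-values, however small, measure that spread poorly. It called Fos, an immediate early gene, lower in pos although the highest Fos sum is a pos sum. That fit called 22 genes (0.242%), of which Vcam1 was higher in pos and 21 were lower.

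The gene past the main test was Bsg (basigin, chromosome 10, 79704491 to 79711969, plus strand), a membrane glycoprotein abundant at the blood-brain barrier that escorts monocarboxylate transporters to the cell surface. Its level was 12859, 16499.8, 12638 and 13835 CPM in the pos sums of young pools 1 and 2 and aged pools 1 and 2. In the neg sums it was 23277, 21133, 23608 and 22995 CPM. Every pos sum lay below every neg sum. Bsg fell in pos by 1.12 ± 0.09 on the log2 scale (SE, edgeR adjusted p = 0.00471, 1.86e-51 with the pool as a block), and it had reads in all 16 pos and all 114 neg cells. The call rests on the scaling and on every pool: with total reads alone the log2 fold change was -0.71 and the adjusted p 0.113, and the adjusted p was 0.0623 without the 2 cells, and 0.0657 to 0.564 when a pool was left out. DESeq2 (-0.68, adjusted p = 0.767) and limma voom with a weight per gate (-1.06, adjusted p = 0.0595) did not call it either.

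The monocarboxylate transporter that basigin escorts, Slc16a1 (MCT1), which carries lactate and ketone bodies, stood at 129, 11.98, 0 and 2.46 CPM in pos. It stood at 1215, 1307, 1071 and 538 CPM in neg. The gates did not overlap, and reads were present in 6 of 16 pos and 67 of 114 neg cells. Its adjusted p in edgeR was 0.234, and 3.81e-11 with the pool as a block.

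Genes of capillary cells lay on the lower side in pos. All 17 genes of a capillary list were tested; 16 had a log2 fold change below 0, the median was -1.71 beside -2.76 over all tested genes and -0.43 over those with at least 200 CPM, and 9 had pos sums wholly below the neg sums (10.4% over all genes). None passed the test in edgeR, and 9 had an unadjusted p under 0.05, all lower (20.4% over all genes). With the pool as a block 7 passed, all lower (0.242% over all genes, either way). Of the 917 genes with at least 200 CPM, 42 had pos sums wholly below neg and 80 were lower at an unadjusted p under 0.05. The block called 21 of those 917 lower. DESeq2 over all genes called 2434. The summed level of the list was 21164, 16735, 18726 and 17523 CPM in pos and 30836, 32717, 29598 and 29386 CPM in neg. All 4 pos sums lay below all neg sums on this measure.

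The membrane carbonic anhydrase Car4 was at 840.5, 28.8, 602 and 1878 CPM in pos sums and 3138, 2433, 2209 and 2443 CPM in neg sums. Each pos sum was below each neg sum, and the adjusted p was 0.234 in edgeR and 6.84e-10 with the block. Mfsd2a, the lipid transporter that limits transcytosis, was at 146, 234, 400.0 and 0 CPM for pos and 968, 869, 401 and 599 CPM for neg. Reads were present in 3 of 16 pos and 67 of 114 neg cells, and aged pool 1 was nearly the same in both gates. Its adjusted p was 0.354 in edgeR and 0.31 with the block.

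Kdr (VEGF receptor 2, chromosome 5, 75932827 to 75978458, minus strand) was at 0.535, 0, 262 and 83.0 CPM in the pos sums against 453, 713, 572 and 671 CPM in the neg sums. No pos sum reached a neg sum. The adjusted p was 0.166 in edgeR and 0.000221 with the block, from reads in 5 of 16 pos and 68 of 114 neg cells. Its relative Flt1 (VEGF receptor 1) was at 1527, 2503, 2318 and 1434 CPM in pos sums and 2911, 2845, 3226 and 2820.0 CPM in neg sums, with an adjusted p of 0.234 in edgeR and 0.0676 with the block.

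Cxcl12, a chemokine of capillary and arterial endothelium (chromosome 6, 117168535 to 117181367, plus strand), had its gates further apart in the aged pools. It was at 3648 and 3079 CPM in the young pos sums against 3039 and 3971 CPM in young neg, so the young gates overlapped. In the aged pools it was at 1521 and 438 CPM in pos against 5317 and 5536 CPM in neg. Over both ages the log2 fold change was -1.72 ± 0.32 (SE, edgeR adjusted p = 0.234, 3.81e-11 with the block), from reads in 9 of 16 pos and 105 of 114 neg cells. The difference between the ages was -2.64 ± 0.63 (SE) with an adjusted p of 0.546 in edgeR and past the test with the block. Itm2a, a membrane protein marking brain endothelium, was at 9375, 4639, 8347 and 10290.2 CPM for pos and 11998, 14147, 10614 and 10734 CPM for neg. It passed with the block only (adjusted p 3.2e-16).

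**Figure D3:**
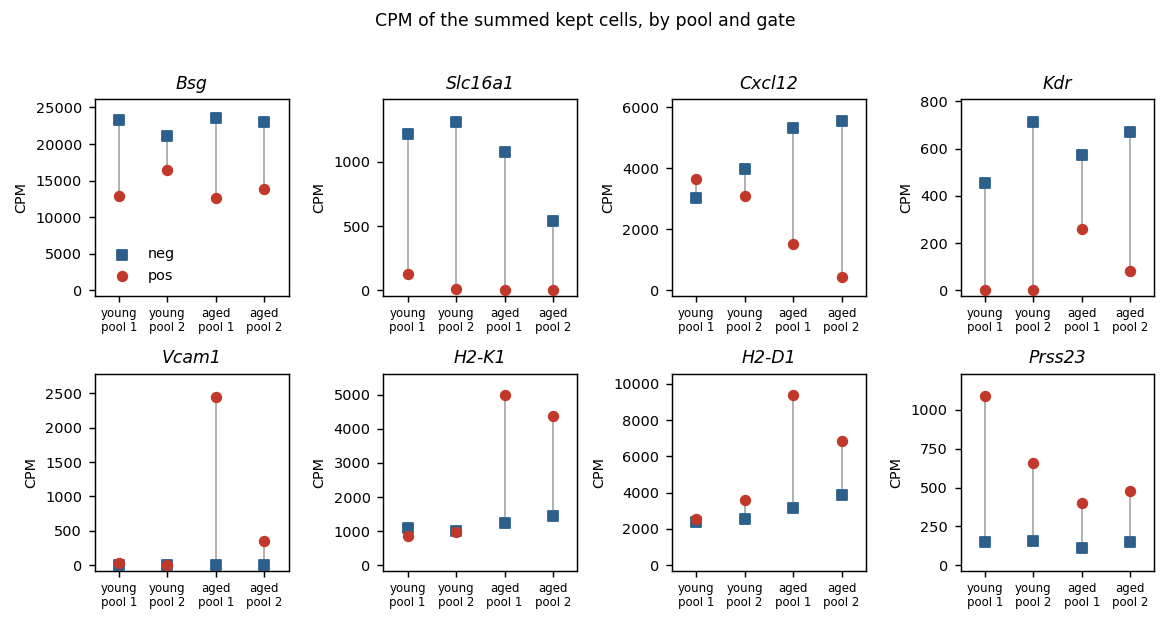
CPM of the summed kept cells for 8 genes in each pool, with pos as circles and neg as squares joined by a line; the vertical axes are linear and differ between genes. Bsg, Slc16a1 and Kdr are lower in pos in all 4 pools, and Prss23 and H2-D1 are higher in all 4. With all kept cells counted, H2-K1 is higher in the aged pools only.

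Transporters of the barrier were lower in pos as a sum, while single genes were mixed. The summed level, which includes Bsg, was 36515, 38395, 35707 and 39617 CPM in pos and 54415, 47708, 52043 and 50818 CPM in neg. Every pos sum of the list lay below every neg sum. On the mean log2(CPM + 1) over cells the list was higher in pos in 1 of 4 pools (averages 5.18 in pos and 5.91 in neg). Of 28 listed, 26 were tested, 23 had a log2 fold change below 0 with a median of -1.20, and 6 had pos sums wholly below neg (10.4% over all genes). The share below 0 is near that over all genes (7349 of 9083). Of the 26, 9 had an unadjusted p under 0.05, all lower. Beside this stand 20.4% lower over all genes and 80 lower of the 917 genes with at least 200 CPM. Bsg is the 1 called (0.011% over all genes). With the block 4 passed, all lower (0.242% over all genes, and 21 lower of the 917). Slco1c1, which carries thyroxine, was at 1167, 597, 1289 and 757 CPM in the pos sums against 2069, 2773, 2559 and 2286 CPM in the neg sums (edgeR adjusted p = 0.234, 0.000527 with the block). Its gates did not overlap. The organic anion transporter Slc22a8 was at 883, 5.99, 585 and 909 CPM in pos sums and 1319, 1245, 1282 and 1616 CPM in neg sums (edgeR adjusted p = 0.373, 0.0134 with the block).

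Other barrier genes overlapped between the gates. The glucose transporter Slc2a1 averaged 8545 ± 1234 CPM in pos and 8149.7 ± 847 CPM in neg (SD, n = 4), and its log2 fold change was -0.36 in the main fit and 0.06 with total reads alone. Slco1a4, another organic anion transporter, averaged 2787 ± 707 and 3135 ± 183 CPM, and Cldn5 averaged 5791 ± 1491 and 6526 ± 618 CPM. Cldn5 had an adjusted p of 0.234 in edgeR and 0.0274 with the block.

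The remaining genes that the naming rule took on the lower side were short of the test (edgeR adjusted p = 0.234 for each). Pglyrp1, a secreted peptidoglycan recognition protein, was at 428 to 1204 CPM for pos and 1724 to 1896 CPM for neg, with an adjusted p of 0.0274 with the block. Fkbp9, Htra3, Sf3b1 and Smu1 were lower in pos in 4 of 4 pools but rested on few cells. Smu1, a splicing factor, had no read in 16 pos cells, which allows a share of up to 18.75% by a limit of 3 counts, and reads in 25 of 114 neg cells (21.9%). Sf3b1, a core splicing factor, had reads in 2 pos and 46 neg cells. Htra3, a secreted serine protease, had reads in 2 pos and 31 neg cells, and Fkbp9 in 3 and 35.

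On the higher side no gene passed the main test, and the 10 genes taken by smallest p were Prss23, Tor1aip2, Timp3, H2-D1, Sppl2a, Usp18, Samhd1, Ccdc130, Wipi2 and Als2cl. Prss23, a secreted serine protease, was at 1089, 658, 401 and 479 CPM in the pos sums against 149.6, 155, 112 and 152 CPM in the neg sums. The 4 pos sums lay above the 4 neg sums, with a log2 fold change of 1.73 ± 0.61 (SE, edgeR adjusted p = 0.234). An antisense gene, Prss23os, overlaps it, and reads of the pair cannot be told apart where strand was not used.

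Timp3, an inhibitor of matrix metalloproteinases, was at 1312, 3181, 2142 and 1013 CPM in pos sums and 699, 909, 636 and 862 CPM in neg sums. These did not overlap either (log2 fold change 0.81 ± 0.37, edgeR adjusted p = 0.245). Sppl2a, an intramembrane protease, was at 213, 345, 416 and 970.3 CPM for pos and 152, 159, 82.9 and 126 CPM for neg (log2 fold change 1.38 ± 0.72, edgeR adjusted p = 0.274). Each of its pos sums exceeded each neg sum. Tor1aip2, Ccdc130, Wipi2 and Als2cl were read in 4 to 6 of the 16 pos cells and in 7 to 19 neg cells. Their adjusted p values in edgeR lay between 0.234 and 0.308.

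Usp18 and Samhd1 are both induced by interferon, the first as the enzyme that removes ISG15 and damps the response and the second as a dNTP hydrolase that restricts viruses. Usp18 was at 381, 607, 1331 and 420.4 CPM in the pos sums against 281, 49.1, 96.4 and 255 CPM in the neg sums. Samhd1 was at 106, 830.3, 181 and 279.9 CPM in pos sums and 17.1, 106, 68.5 and 41.3 CPM in neg sums. The pos sums of Usp18 lay above its neg sums, while the lowest pos sum of Samhd1 was level with its highest neg sum. Their log2 fold changes were 1.48 ± 0.78 and 2.05 ± 1.09 (SE), with adjusted p of 0.275 and 0.282 in edgeR.

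The interferon list as a whole had 31 tested genes, 20 with a log2 fold change above 0 and 0 past the test in edgeR (1 at an unadjusted p under 0.05, lower). Its median was 0.49, beside -2.76 over all tested genes and -0.43 over those with at least 200 CPM. With the aged pools alone 24 of the 31 were above 0 with a median of 1.15, beside -1.30 and -0.43. With the young pools alone 13 were above 0 with a median of -0.15, beside -1.30 and -0.34. The mean log2(CPM + 1) of the list over cells was 2.72, 4.49, 5.65 and 3.46 in the pos pools and 2.56, 2.46, 2.28 and 2.85 in the neg pools. It was higher in pos in 4 of 4 pools, by 1.54 on average, and by 1.75 without the 2 cells. In young pool 2, where pos is a single cell, the summed level of the list was 12561 CPM in pos and 11929 CPM in neg. That cell had 3703 detected genes, against a mean of 1594 per kept neg cell of the pool. The part of this in the list mean was not tested. In the left-out cells the mean log2(CPM + 1) was higher in pos in 1 of 4 pools, with averages of 2.87 and 2.93. Ifitm3, an antiviral membrane protein, was at 1511, 446, 3669 and 1906 CPM in pos sums against 894, 1004, 840.1 and 813 CPM in neg sums. It was below neg in young pool 2 only. Immediate early and stress genes, which include Fos, stood at 7.41 in the single cell of young pool 2 and at 2.49 to 3.71 in the other pos pools.

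**Figure D4:**
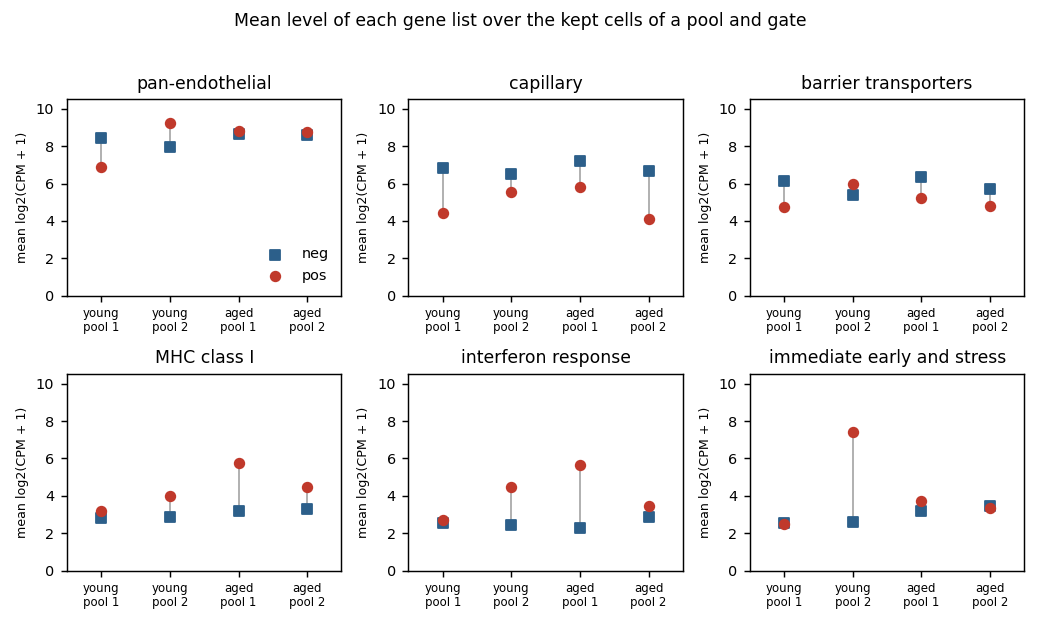
Mean log2(CPM + 1) over the genes of 6 lists and the kept cells of each pool, with pos as circles and neg as squares. The capillary list is lower in pos in all 4 pools, the MHC class I and interferon lists are higher in all 4 on this scale (the summed CPM of class I is lower in pos in young pool 2), and the stress list stands at 7.41 in the single pos cell of young pool 2.

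MHC class I genes stood highest in the aged pos sums. H2-K1, a classical class I heavy chain (chromosome 17, 33996017 to 34000347, minus strand), was at 849.9 and 980.0 CPM in young pos against 1081 and 1001 CPM in young neg. In the aged pools it was at 4979 and 4367 CPM in pos against 1245 and 1445 CPM in neg. The aged pos sums lay above all other sums. With all kept cells counted, both young pos sums lay a little below both young neg sums. The young pool 1 pos sum includes the 2 cells with markers of another type, which held H2-K1 at 0 and 26.3 CPM and so lower it. The other 4 cells of that sum held H2-K1 at 2.38, 708, 878 and 1690 CPM. The order of the gates in young pool 1 thus rests on counting the 2 cells. H2-K1 was read in all 9 aged pos cells and in 33 of 49 aged neg cells.

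H2-D1, the other classical heavy chain (chromosome 17, 35262730 to 35267499, plus strand), was at 2572, 3588, 9402 and 6838 CPM for pos and 2381, 2529, 3166 and 3882 CPM for neg. It was higher in pos in 4 of 4 pools, with overlap between ages. The light chain B2m (chromosome 2, 122147686 to 122153083, plus strand) was at 3566, 1193, 7013 and 4996 CPM in the pos sums against 2438, 2444, 2187 and 2321 CPM in the neg sums. It was below neg in young pool 2 only.

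H2-Q6, a non-classical class I gene, was at 0 in both young pos sums and at 499 and 713 CPM in the aged pos sums. It had reads in 8 of 9 aged pos cells, 0 of 7 young pos cells, 5 of 49 aged neg cells and 1 of 65 young neg cells. Class I genes are close copies of each other, so the division of reads among H2-K1, H2-D1 and H2-Q6 is uncertain.

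Over both ages the class I differences were short of the test in the main fit. The log2 fold change of H2-K1 was 0.38 ± 0.22 and that of H2-D1 0.33 ± 0.16 (SE, edgeR adjusted p = 0.321 and 0.245). With total reads alone they were 0.81 and 0.77. With total reads and the pool as a block, H2-D1 passed (0.75, edgeR adjusted p = 0.0455) and H2-K1 did not (0.80, adjusted p = 0.847). With the young pools alone the main fit gave -0.53 and -0.03, and with the aged pools alone 1.30 and 0.69. The young values include the 2 cells with markers of another type, which held H2-D1 at 0 and 794 CPM. Of 22 listed class I genes 21 were tested, 13 had a log2 fold change above 0 with a median of 0.21 beside the same -2.76 and -0.43, and 0 passed in edgeR. With the aged pools alone 15 of the 21 were above 0 with a median of 0.90, beside -1.30 over all tested genes and -0.43 over those with at least 200 CPM. With the young pools alone 6 were above 0 with a median of -0.49, beside -1.30 and -0.34. The list's mean log2(CPM + 1) was 3.17, 4.00, 5.75 and 4.49 in pos and 2.80, 2.89, 3.21 and 3.30 in neg. Without the 2 cells the list stood at 3.73 in pos of young pool 1. Its summed level was 11409, 8416, 29070 and 21543 CPM in pos and 9042, 8863, 9119 and 11360 CPM in neg, so on that measure pos was below neg in young pool 2.

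The bases upstream of H2-K1 and B2m are shown because the level of these genes stood highest in both aged pos sums, and because class I promoters are a textbook meeting point of NF-kappaB and interferon signals. They run from 250 to 11 bases before the RefSeq transcription start (GRCm38.p6), 5′ to 3′ on the strand of the gene. Capitals mark matches on either strand to a kappaB-type sequence (GGG, any 2 bases, TTCCC) or to an interferon-response repeat (GAAA, any 2 bases, GAAA).
H2-K1, chr17:34000358-34000597, minus strand: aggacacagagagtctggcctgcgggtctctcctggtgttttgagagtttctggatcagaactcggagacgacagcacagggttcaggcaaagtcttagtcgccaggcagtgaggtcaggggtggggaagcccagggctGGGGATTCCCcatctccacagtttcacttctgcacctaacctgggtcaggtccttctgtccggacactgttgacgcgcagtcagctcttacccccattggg
B2m, chr2:122147437-122147676, plus strand: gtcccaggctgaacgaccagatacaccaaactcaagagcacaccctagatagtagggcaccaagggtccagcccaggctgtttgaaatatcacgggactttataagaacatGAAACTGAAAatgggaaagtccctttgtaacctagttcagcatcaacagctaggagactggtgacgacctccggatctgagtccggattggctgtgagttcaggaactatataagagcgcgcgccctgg

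The kappaB-type letters GGGGATTCCC stand 111 bases before the RefSeq start of H2-K1 used here, and the same letters stand upstream of H2-D1, whose window overlaps an annotated exon and is not printed. In these windows 1.49% of all 32851 promoters of the table hold the first motif and 2.87% the second. Among the windows of the class I list 6 of 19 held the first and 3 of 19 the second, and H2-K1 alone has 2 overlapping windows. On the interferon list 0 of 27 held the first and 12 of 27 the second, and on the capillary list 1 and 0 of 21. Looser forms of either motif were not looked for. A match is a description of the sequence and shows no binding.

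The gate difference at 19 months was compared with that at 3 months directly. In edgeR 0 of 9083 genes (0%) passed, with 763 at an unadjusted p under 0.05. DESeq2 called 1728, and edgeR with the pool as a block called 5 (Fos, Cyr61, Cxcl12, Pttg1ip and Cnn2). For H2-K1 the difference of the gate differences was 1.83 ± 0.44 on the log2 scale (SE, edgeR adjusted p = 0.546), and for H2-D1 it was 0.72 ± 0.31 (adjusted p = 0.559). Vcam1, without reads in either aged neg sum, also had an adjusted p of 0.559. A gate difference that depends on age was thus not shown for these genes.

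The genes with the smallest p for this difference included Pttg1ip, a membrane protein that binds PTTG1, at 1.07, 4.79, 1036 and 621 CPM in pos sums and 861, 1165, 638 and 924 CPM in neg sums. Its young pos sums were far below the rest. Cs, the mitochondrial citrate synthase, was at 0.535, 0, 787 and 248 CPM for pos and 93.2 to 268 CPM for neg, and Xab2, a splicing and repair factor, rested on 2 pos cells. On the other side were Cnn2, an actin-binding calponin, with Tmco1, a calcium channel of the endoplasmic reticulum, and Sh3bp4, an endocytic adaptor. All 3 were at 0 in both aged pos sums. Each of these 6 genes had an adjusted p of 0.546 in edgeR.

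Between the ages, within the pos gate (9 aged against 7 young cells), 0 of 9083 genes (0%) passed in edgeR, 921 had an unadjusted p under 0.05 and DESeq2 called 2163. Pttg1ip, H2-K1 and Kdr were the 3 on the higher side at 19 months by smallest p, and H2-K1 had a log2 fold change of 2.19 ± 0.33 (SE, edgeR adjusted p = 0.253). On the lower side were Ly6c1, a surface antigen of brain endothelium, Cnn2 and Tsc22d1, a leucine zipper regulator. Ly6c1 was at 7410.2 and 9771 CPM in young pos and at 4073 and 3921 CPM in aged pos, a log2 fold change of -1.25 ± 0.16 (SE, edgeR adjusted p = 0.130). The neg gate held Ly6c1 at 5116 to 6208 CPM at both ages.

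Within the neg gate (49 aged against 65 young cells), 0 of 9083 genes (0%) passed in edgeR, with 208 at an unadjusted p under 0.05 and 271 called by DESeq2. The genes on the higher side at 19 months were H2-Q6, Tmem63a and Anxa2. H2-Q6 was at 0.0509 and 0 CPM in young and at 10.02 and 70.8 CPM in aged neg sums. On the lower side were Selenop, the selenium carrier protein, at 5271 and 4139.8 CPM in young and 2228 and 2367 CPM in aged neg, with Xab2 and Iigp1, an interferon-induced GTPase. The log2 fold change of Selenop was -1.04 ± 0.25 (SE) and short of the test.

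The gate difference in the kept cells was also set against that in the 150 cells the rule left out, 129 pos and 21 neg. In edgeR 0 of 10311 genes (0%) had gate differences that differed past the test, with 2713 at an unadjusted p under 0.05 and 2740 called by DESeq2. The genes taken by smallest p were Irf7, Prss23 and Glul on the higher side and Tmem126b, Ifrd1 and Tbx1 on the lower, where the kept pos cells had 0, 1 and 0 cells with a read. Irf7, the master regulator of type I interferon genes, was at 389, 188, 1803 and 243 CPM in kept pos and at 225, 135, 164 and 266 CPM in kept neg. In the left-out cells it averaged 111 CPM in pos and 434 CPM in neg (difference of the log2 differences 3.00 ± 1.15, SE, short of the test in edgeR). Cxcl12 averaged 231 CPM in left-out pos and 3539.6 CPM in left-out neg cells, and its difference of 2.12 ± 0.73 had an adjusted p of 0.0773.

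Without the limit on arterial and venous genes, with all 280 cells in the sums, edgeR called 49 of 10548 genes (0.465%). Among them were H2-K1, at a log2 fold change of 1.05 with an adjusted p of 0.0361, and H2-D1, at 0.77 with 0.0361. H2-Q6, Car4, Mfsd2a and Vcam1 each had an adjusted p of 0.00691 there, and Bsg kept its lower level with the same adjusted p. Those sums held 145 pos cells, against 16 here.

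The number of genes detected per kept cell was compared as well. Its mean was 1761, 3703, 1849 and 1634 in the pos pools and 1601, 1594, 1711 and 1680 in the neg pools. The single cell of young pool 2 stood apart. The averages were 2237 ± 982 in pos and 1646 ± 57.8 in neg (SD, n = 4, exact permutation p = 0.0857, 0.25 within paired pools). Without young pool 2 the difference was 83.9 genes (exact permutation p = 0.300), and with cells thinned to 200000 reads, which left out 5 neg cells of aged pool 1 below that depth, it was 412 (exact permutation p = 0.286).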

How the data were processed

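The authors deposited raw counts of reads per gene and cell as 1 table of 11463 genes and 316 cells. The unit was read from the values, which are whole numbers. Bowtie 0.12.2, mm10 and GRCm38 are named in the submitters' processing notes. Counting tool, annotation and strand: not given in the sources used here. Each row of the table has a read in at least 5 cells.

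The cell rule was applied to these deposited counts, and the counts of kept cells were added up per pool and gate. The tests across genes used edgeR 4.0.16 (R 4.3.3) on the sums, with its default expression filter, TMM factors and a mean for each age and gate in the quasi-likelihood model. A call is a Benjamini-Hochberg adjusted p under 0.05. The SE printed with an edgeR log2 fold change is its absolute value divided by the square root of the quasi-likelihood F. DESeq2 1.42.0, limma 3.58.1, other scalings, other cell limits and left-out pools served as alternatives. The edgeR code was tested on simulated data. Shares and genes per cell were compared over pools by two-sided exact permutation, which leaves out the pairing unless it is said to be within pools. The members, lists and tests were chosen with earlier results of these data known, so the direction of a list is no independent support.

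Named genes were up to 12 called genes each way with the largest change, a mean of at least 32 CPM, the same sign in 4 of 4 pools and reads in at least 10% of the kept cells of the higher gate. These were filled to 10 each way by smallest p, and for other contrasts up to 5 were taken and filled to 3. Vcam1, the 12 genes of the rule and up to 6 genes of each list, by highest mean CPM or a call, were named besides. Predicted (Gm, Rik), mitochondrially encoded and ribosomal RNA genes were passed over. Mfsd2a and Fos fall outside the rule and were chosen after their values were seen.

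The labels give pos and neg cells of a pool the same mice, which pairs them. Within young pools the deviations of paired sums from group means correlated at -0.00738, and within aged pools at 0.00955. Nothing beyond the pools of 4 mice is replicated, so p-values of the main fit and the permutation tests measure the spread between pools. The fit with the pool as a block has few sums left to measure that spread. Positions are from GENCODE M21 and upstream sequences from RefSeq.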

Additional observations from a re-analysis of the deposited data

Results flagged for a closer look

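Among 98 sets of 4 pools, 12 held a value far from the other 3 by Dixon's test at 95%; chance flags about 1 in 20. In the pos pools the highest value stood apart for detected genes per cell (3703, the single cell of young pool 2), Vcam1 (2449 CPM, aged pool 1), Irf7 (1803 CPM, aged pool 1), Slc16a1 (129 CPM, young pool 1), Sh3bp4 (866 CPM, young pool 2) and Tmem63a (125 CPM, aged pool 2). Htra3 (0.535 CPM), Iigp1 (1.20 CPM) and Ifrd1 (1.20 CPM) were flagged because the other 3 pos sums were at 0. In the neg pools Vcam1 (0.475 CPM, young pool 2) and H2-Q6 (70.8 CPM, aged pool 2) were high, and Prss23 (112 CPM, aged pool 1) was low.

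Cells with fewer than 1000 detected genes entered no comparison. Vcam1 reads were present in 2 of 10 such pos cells (20%) and in 1 of 26 such neg cells (3.85%).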

How the results depend on the processing

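The count of called genes for the gate (1 in edgeR) depended on the choices made. It was 0 with RLE or total-read scaling, with cells that had no arterial and no venous gene at 10 CPM, with any read counting as a marker (which leaves young pool 2 without pos cells), without the 2 cells with other markers, with the young pools alone, and 0 to 0 when a pool was left out. It was 22 with the replicate block (pools paired), 13 with the block and total reads, 49 with no limit on arterial and venous genes, 200 with voom weights per gate, 274 with limma-trend and 2434 with DESeq2. Neither DESeq2 nor voom called Bsg, the 1 gene of edgeR. The cause was not tested. No other setting moved it. DESeq2 called 1728 genes for the gate difference between ages, 2163 for age in pos, 271 for age in neg and 2740 for kept against left-out cells, where edgeR called 0. The replicate block called 5, 4, 0 and 0 genes in the same order. Between ages a pool number pairs no mice. Without a pool, kept against left-out cells gave 0 to 1 calls, the 1 being Pim3 without young pool 2.

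Detected genes per cell differed by 895 with cells that had no marker at 10 CPM (exact permutation p = 0.0286, 0.125 within paired pools), with 1 pos cell each in young pool 2 and aged pool 2. With the young pools alone, the 2 cells included, the log2 fold change reversed for H2-D1 (-0.034), H2-K1 (-0.53) and B2m (-0.32). Leaving out a pool gave B2m -0.32 to 0.62, the lowest without young pool 1. Sf3b1 was at 0.078 with no limit on markers. Over the named genes and their alternatives, 765 values kept their direction and side of the threshold, 70 newly passed it, 12 lost it (all for Bsg) and these 5 reversed. The settings without the 2 cells, total reads, voom weights and single ages were chosen after seeing the data. Depth is limited by 16 pos cells, 1 of them the whole of young pool 2, and some named genes rest on reads in 1 or 2 pos cells.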

Other observations

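Of 17 tested junction genes 0 passed in edgeR and 4 were lower at an unadjusted p under 0.05. The Wnt and barrier list had 3 of 21 lower, the Notch list 3 of 14, the VEGF and angiogenesis list 3 of 15 and the matrix list 6 of 20, beside 20.4% over all genes. Apod, a lipid-binding protein on the fibroblast list, had reads in 10 of the 16 pos cells and in 36 of the 114 neg cells. Slc38a5, a glutamine transporter of veins and capillaries, was at 1502 and 942 CPM in aged pos, 117 and 7.19 CPM in young pos and 260.0 to 654 CPM in neg.

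Fos, an immediate early gene, was at 3061 CPM in the single pos cell of young pool 2, at 0.535 CPM in young pool 1 and at 0 in both aged pos sums, against 0.254 to 701 CPM in neg. It was called lower in pos by edgeR with the pool as a block (adjusted p = 0.000221) although its highest sum is a pos sum.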
